A study of Mus musculus with 30 samples.

Results

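The 36 genes described here carry out glycolysis or take part in the transcriptional response to low oxygen. They were chosen by gene symbol from what they are known to do, but with earlier results of these data known. They span 4 genes of glucose entry, 7 of upper and 6 of lower glycolysis, 2 bifunctional enzymes that set fructose 2,6-bisphosphate, 3 genes of pyruvate and lactate handling, 4 hypoxia-inducible factor (HIF) subunits and prolyl hydroxylases, 2 secreted vascular factors, 2 mitochondrial proteins and 6 further hypoxia targets. All 36 symbols were found, out of 25520 in files of untreated cells and 25410 in those of the hormone experiment. The cells were IDG-SW3, a conditionally immortalised mouse bone cell line that the labels call osteocytic; it is expanded at a permissive temperature with interferon-gamma and then moved to a higher temperature without it, with ascorbic acid and beta-glycerophosphate, to differentiate from an osteoblast-like towards an osteocyte-like state. In the untreated experiment, cells received neither compound nor vehicle and were collected first at day 3, then weekly from day 7 (days 7, 14, 21 and 28) to day 35, with 3 libraries a day. In the hormone experiment, cells at day 3 or day 35 received ethanol vehicle or 100 nM 1,25(OH)2D3, the active form of vitamin D, for 24 h before collection, with 3 libraries in each of the 4 groups. Every group therefore shared the same single cell line and the same differentiation medium, and all libraries came from rRNA-depleted total RNA.

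Glycolysis converts glucose to pyruvate in the cytosol and yields ATP without oxygen, and lactate dehydrogenase then turns pyruvate into lactate. HIF transcription factors pair an oxygen-sensitive alpha subunit with the stable partner ARNT; in oxygen, prolyl hydroxylases mark the alpha subunit for destruction through the VHL protein, and in its absence the dimer binds short DNA sites and raises transcription of glucose transporters, most glycolytic enzymes, the pyruvate dehydrogenase kinase PDK1 and the vessel growth factor VEGF. In bone, osteoblasts are known for a high use of glycolysis, and osteocytes live enclosed in mineralised matrix at some distance from vessels.

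Because HIF proteins recognise the core letters ACGTG or GCGTG, the 250 bases before each transcription start in the RefSeq promoter table (build GRCm38.p6) were searched for those letters on both strands, which read CACGT or CACGC where the match lies on the opposite strand; a CACGTG holds a match on each strand. The table held 32 of the 36 genes, Pkm2 under the symbol Pkm; Slc2a3, Epas1, Ndrg1 and Bhlhe40 had no entry. At least 1 match stood in some promoter of 29 of the 32 genes (90.6%), against 41.5% of all 27025 genes in the table; per promoter the shares were 76% of 50 and 38.6% of 32851. Gpi1, Tpi1 and Eno2 had no match in any promoter. The sequences below belong to the 6 tabulated genes with the largest rises between day 3 and day 35 in vehicle-treated cells, and to Hk2 and Adm, which had the largest falls with 1,25(OH)2D3 at day 3. Each is written 5′ to 3′ along the gene's strand and ends at the base before the start site, with matches in capitals; Pdk1 and Aldoc each have 2 tabulated promoters, of which the first is shown.
Egln3, chr12:54203875-54204124, minus strand: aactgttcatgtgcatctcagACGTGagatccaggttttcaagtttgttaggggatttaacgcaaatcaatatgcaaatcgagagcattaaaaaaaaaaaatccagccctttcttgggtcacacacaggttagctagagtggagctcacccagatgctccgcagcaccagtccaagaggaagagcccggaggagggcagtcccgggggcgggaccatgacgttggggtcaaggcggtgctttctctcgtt
Ankrd37, chr8:45999851-46000100, minus strand: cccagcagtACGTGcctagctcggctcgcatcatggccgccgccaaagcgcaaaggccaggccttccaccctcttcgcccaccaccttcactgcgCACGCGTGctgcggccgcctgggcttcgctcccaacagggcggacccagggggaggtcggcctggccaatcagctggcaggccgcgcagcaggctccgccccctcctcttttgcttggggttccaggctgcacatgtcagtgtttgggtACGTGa
Pdk1, chr2:71872974-71873223, plus strand: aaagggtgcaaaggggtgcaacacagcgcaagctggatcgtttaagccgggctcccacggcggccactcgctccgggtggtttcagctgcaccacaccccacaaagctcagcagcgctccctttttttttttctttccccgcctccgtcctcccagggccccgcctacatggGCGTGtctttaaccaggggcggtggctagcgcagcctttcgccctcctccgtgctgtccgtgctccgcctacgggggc
Aldoc, chr11:78322823-78323072, plus strand: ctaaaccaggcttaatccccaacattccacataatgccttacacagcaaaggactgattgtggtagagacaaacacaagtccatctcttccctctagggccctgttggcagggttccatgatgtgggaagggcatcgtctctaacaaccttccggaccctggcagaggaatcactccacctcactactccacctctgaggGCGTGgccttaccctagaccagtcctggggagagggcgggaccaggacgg
Higd1a, chr9:121857797-121858046, minus strand: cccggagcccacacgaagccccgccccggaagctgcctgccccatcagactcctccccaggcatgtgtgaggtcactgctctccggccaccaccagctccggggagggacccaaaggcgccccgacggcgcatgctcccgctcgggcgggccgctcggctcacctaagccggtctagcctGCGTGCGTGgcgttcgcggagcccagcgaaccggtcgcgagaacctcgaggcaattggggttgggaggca
Bnip3, chr7:138909507-138909756, minus strand: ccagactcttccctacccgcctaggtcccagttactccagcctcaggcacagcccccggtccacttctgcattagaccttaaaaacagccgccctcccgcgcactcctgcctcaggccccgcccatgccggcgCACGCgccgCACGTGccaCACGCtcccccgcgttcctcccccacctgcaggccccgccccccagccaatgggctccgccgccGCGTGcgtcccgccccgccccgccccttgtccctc
Hk2, chr6:82774455-82774704, minus strand: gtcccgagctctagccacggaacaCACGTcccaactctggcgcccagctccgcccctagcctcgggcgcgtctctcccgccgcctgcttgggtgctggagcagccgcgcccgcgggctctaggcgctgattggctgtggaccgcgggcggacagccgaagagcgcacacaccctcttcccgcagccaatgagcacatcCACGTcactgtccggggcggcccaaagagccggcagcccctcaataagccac
Adm, chr7:110627407-110627656, plus strand: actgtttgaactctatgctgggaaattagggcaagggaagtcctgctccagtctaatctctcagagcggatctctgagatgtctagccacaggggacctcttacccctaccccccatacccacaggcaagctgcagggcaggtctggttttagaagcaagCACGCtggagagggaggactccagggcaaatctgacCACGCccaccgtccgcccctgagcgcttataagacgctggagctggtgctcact
The number of matches ranged from 1 in Egln3, Pdk1 and Aldoc to 5 in Bnip3, where a CACGTG accounts for a pair. Genes that rose and genes that fell are both represented among those with matches, and 17 of the 20 tabulated genes that rose in vehicle-treated cells held a match. A match describes the letters only and is not a measured binding site. The shares were not tested, and the genes compared were not matched for base content or for number of promoters.

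Library totals in the hormone experiment ranged from 22062866 to 54325515 counts (median 34223361); the untreated experiment holds RPKM values, reads scaled by gene length and library size, whose depth is unknown. The labels call the replicates biological and do not say whether they came from separate cultures, so p-values measure the spread between these libraries. Osteoblast markers summed to between 1281 and 3612 CPM (counts scaled by library size) in vehicle-treated cells at day 3 and between 20506 and 26173 at day 35; osteocyte markers, of which Mepe and Sost were at 0 at day 3, went from between 107 and 133 to between 427 and 562. In the same libraries 5 of 5 cell cycle genes fell, their sum from between 1478 and 1695 CPM to between 96.9 and 133. Sums were low for markers of macrophages and blood (7.86 to 40.9 CPM over all 4 groups, Ptprc and Itgam at 0 throughout) and of endothelium (1.37 to 8.21 CPM, Pecam1 and Emcn at 0). Chondrocyte markers went from between 70.3 and 166 CPM to between 304 and 401, and muscle markers from between 5.27 and 11.5 to between 0.409 and 0.577. The 3 hormone libraries of day 3 stood apart: 1077 olfactory receptor genes took 0.0494% to 0.0721% of their reads, against 0.00392% to 0.00549% in vehicle-treated cells of that day, and their TMM scaling factors, which bring library totals to a common scale, were 1.18 to 1.29 against 0.871 to 1.02 elsewhere. Hormone replicate 2 of day 35 also had a high olfactory receptor share, 0.0417% against 0.00322% and 0.00479% in the other hormone libraries of that day. In that experiment 9 of the genes (Hk1, Pfkm, Aldoa, Pfkfb3, Ldha, Slc16a3, Vegfa, Kdm3a and Mxi1) have several rows; symbols of that kind had far lower counts for their RPKM than symbols with 1 row, as if only reads unique to one transcript had been counted, so their levels there were not taken as gene levels; Vegfa and Pfkfb3 had 0 counts in all 12 libraries. Gapdh, Pgk1, Eno1, Aldoa, Tpi1, Ldha and Pgam1 have near-identical copies or pseudogenes elsewhere in the genome that could have taken or lent reads, and their values are uncertain to that extent.

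Vehicle-treated cells at day 35 were compared with those at day 3 to ask how glycolysis and hypoxia genes stood at the 2 ends of differentiation. Of the 32 genes tested, 23 rose and 3 fell, where 29.9% of all 20055 genes tested were called (15.5% higher, 14.5% lower); a call means an adjusted p below 0.05 in edgeR's quasi-likelihood test. The median log2 change over the 32 was 1.18, against 0.18 over all genes tested. The filter on low counts keeps a gene that is high in 1 group only, so these counts describe the genes that could be tested. Of the enzymes between glucose phosphate and pyruvate, 5 of 7 genes of upper glycolysis and all 6 of lower glycolysis rose, and none fell. In bulk RNA, fewer cells of a type and less RNA per cell cannot be told apart. The osteoblast, osteocyte, chondrocyte, muscle and cell cycle sums given above moved between the same libraries, and their part in these changes was not tested.

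**Figure D1:**
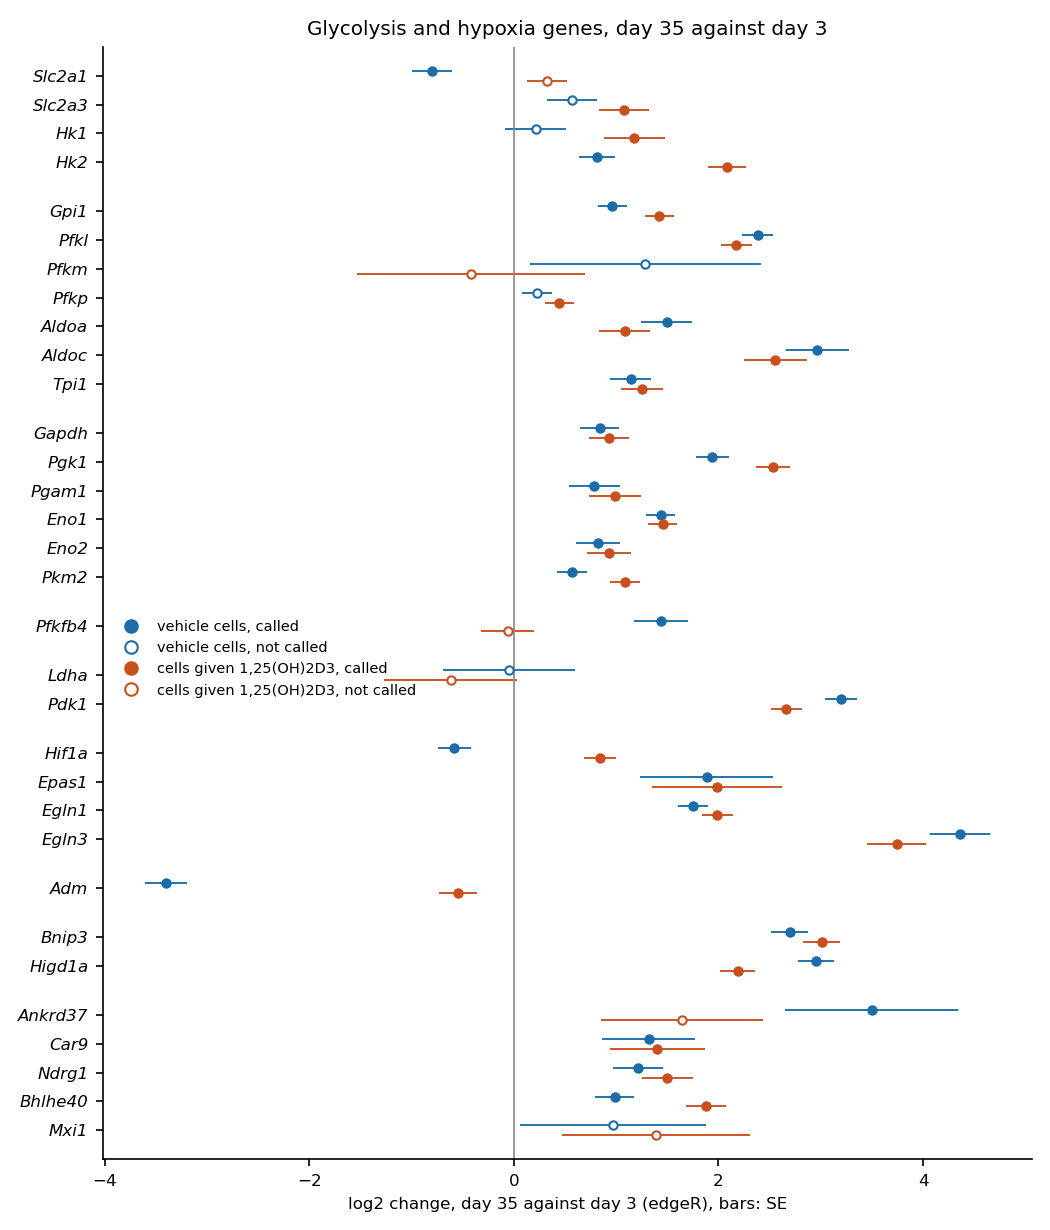
Log2 change between day 3 and day 35 (x axis) of the 32 tested glycolysis and hypoxia genes, in vehicle-treated cells (blue) and in 1,25(OH)2D3-treated cells (orange), from 3 libraries a group. Points are edgeR estimates, bars are standard errors and filled points passed the test; in vehicle-treated cells 23 points lie filled to the right of 0 and Adm, Slc2a1 and Hif1a lie filled to the left.

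The largest rise was that of Egln3, a prolyl hydroxylase that marks HIF alpha subunits and is itself a HIF target. It lay at 1.93, 2.37 and 1.93 CPM in the 3 vehicle libraries of day 3 and at 57.8, 35.0 and 34.9 CPM at day 35. Every day 35 library was thus far above every day 3 library, a 20.5-fold rise (log2 change 4.36 ± 0.29 SE, adjusted p = 3.39e-08). Egln1, the main oxygen-sensing prolyl hydroxylase, rose from 51.2, 66.4 and 57.5 CPM to 210, 179 and 202 CPM (1.75 ± 0.15, adjusted p = 3.87e-07). Hif1a, the alpha subunit that these enzymes act on, moved the other way, from 637, 615 and 737 CPM to 526, 415 and 389 CPM. All 3 day 35 libraries were below all 3 of day 3, and the fall was −0.58 ± 0.16 (adjusted p = 0.0109). Its call was lost without vehicle replicate 3 of day 3 (adjusted p = 0.0616) and without replicate 2 or 3 of day 35 (0.0561 and 0.0706). Epas1, the second alpha subunit, was near the limit of detection at 0.171, 0.857 and 0.344 CPM at day 3 and 3.28, 1.23 and 0.572 CPM at day 35. The groups overlapped, and the rise (1.89 ± 0.65, adjusted p = 0.0402) was lost without replicate 1 or 3 of day 3 (0.11 and 0.12) and without replicate 1 or 2 of day 35 (0.289 and 0.0510).

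At the branch from glycolysis into the mitochondrion, Pdk1, the kinase that switches off pyruvate dehydrogenase, went from 46.0, 33.7 and 40.5 CPM to 381, 338 and 384 CPM. The mitochondrial proteins Bnip3, which promotes removal of mitochondria, and Higd1a, a small protein of the inner membrane, moved with it. Bnip3 went from 11.7, 14.1 and 15.5 CPM to 113, 78.2 and 76.8 CPM (2.70 ± 0.18, adjusted p = 3.00e-08). Higd1a went from 24.3, 20.1 and 24.7 CPM to 196, 154 and 187 CPM (2.96 ± 0.18, adjusted p = 1.04e-08). For all 3 genes the groups were widely apart. Ldha, the subunit of lactate dehydrogenase that favours lactate, had few reads in its several rows, 208 counts over the 3 vehicle libraries of day 3 and 137 over those of day 35, and did not pass the test (log2 change −0.05), and Slc16a3, the lactate exporter MCT4, could not be tested.

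In upper glycolysis the liver-type phosphofructokinase Pfkl was the gene with the largest rise after Aldoc. Pfkl lay at 29.0, 23.5 and 21.7 CPM at day 3 and at 115, 132 and 140 CPM at day 35 (2.39 ± 0.15, adjusted p = 1.82e-08). The platelet-type subunit Pfkp stayed between 24.1 and 26.6 CPM at day 3 and 28.7 and 31.1 CPM at day 35 (0.23, adjusted p = 0.264), so that per kilobase of transcript Pfkl went from 6.63 to 34.6 CPM and Pfkp from 2.96 to 3.46. The muscle-type subunit Pfkm was not called (1.29). Aldoc, an aldolase isoform typical of brain, rose from 0.805, 1.02 and 1.22 CPM to 7.43, 9.49 and 6.91 CPM (2.97 ± 0.31, adjusted p = 2.77e-06). Aldoa, the widely expressed aldolase, with several rows, rose from 3.51, 2.98 and 3.67 CPM to 10.4, 9.27 and 8.99 CPM (1.49 ± 0.25). Both isomerases of the upper pathway rose by less. Phosphoglucose isomerase Gpi1 went from 38.7, 40.5 and 34.4 CPM to 69.5, 75.7 and 76.1 CPM (0.96 ± 0.14). Triose phosphate isomerase Tpi1 went from 54.8, 32.6 and 39.5 CPM to 76.9, 88.8 and 114 CPM (1.14 ± 0.20). The days did not overlap for any of the 5 genes that rose.

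In lower glycolysis Pgk1, which makes the first ATP of the pathway, showed the largest rise. It went from 201, 166 and 172 CPM to 678, 637 and 753 CPM (1.94 ± 0.16, adjusted p = 3.36e-07). Enolase Eno1 went from 87.7, 93.0 and 92.2 CPM to 226, 235 and 278 CPM (1.44 ± 0.14, adjusted p = 1.60e-06). Smaller rises, with no overlap between the days, were those of the neuronal enolase Eno2, of Gapdh, which makes the pathway's NADH, and of pyruvate kinase Pkm2. Eno2 went from 8.47, 11.7 and 9.47 CPM to 20.2, 16.0 and 16.4 CPM (0.82 ± 0.21). Gapdh went from 13.4, 9.97 and 10.5 CPM to 20.6, 21.8 and 18.1 CPM (0.84 ± 0.19). Pkm2 went from 572, 422 and 457 CPM to 678, 670 and 807 CPM (0.57 ± 0.15). Pgam1, phosphoglycerate mutase, did overlap, at 150, 333 and 176 CPM against 490, 339 and 308 CPM. Its rise (0.79 ± 0.25, adjusted p = 0.0282) was lost without replicate 1 or 3 of day 3 (0.0853 and 0.105) or replicate 1 of day 35 (0.123). Pfkfb4, a bifunctional enzyme that sets the phosphofructokinase activator, rose from 2.61, 3.34 and 3.33 CPM to 8.86, 8.41 and 7.89 CPM (1.44 ± 0.26, adjusted p = 0.000576).

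Glucose entry did not rise as a whole: Hk2 rose, Slc2a1 fell, and Slc2a3 and Hk1 were not called. Hexokinase Hk2, which traps glucose as its phosphate, went from 127, 108 and 98.5 CPM to 181, 185 and 221 CPM (0.81 ± 0.18, adjusted p = 0.00248). The glucose transporter GLUT1, encoded by Slc2a1, went from 44.6, 63.7 and 47.0 CPM down to 37.2, 25.3 and 26.7 CPM (−0.80 ± 0.19, adjusted p = 0.00511). The GLUT3 gene Slc2a3 was low, at 10.7, 5.50 and 9.17 CPM against 11.9, 12.8 and 13.0 CPM (0.57, adjusted p = 0.0932), and Hk1 was at 7.15, 3.23 and 5.14 CPM against 7.28, 5.23 and 5.48 CPM (0.22). The deepest fall of all belonged to Adm, a secreted vasodilator peptide and a common HIF target. Adm lay at 91.8, 57.6 and 70.9 CPM at day 3 and at 6.14, 7.04 and 7.72 CPM at day 35 (−3.40 ± 0.20, adjusted p = 1.04e-08). The days were separated by a wide gap for Adm and did not overlap for Hk2 or Slc2a1.

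Among the other hypoxia targets, Ankrd37, an ankyrin repeat protein, rose from 0.586, 0 and 0.482 CPM to 4.42, 3.90 and 3.80 CPM (3.5 ± 0.85, adjusted p = 0.00531). The stress response gene Ndrg1 rose from 50.5, 120 and 69.3 CPM to 206, 179 and 171 CPM (1.22 ± 0.25, adjusted p = 0.00149). Bhlhe40, a transcriptional repressor of the clock, rose from 33.7, 51.1 and 41.3 CPM to 101, 73.9 and 74.5 CPM (0.99 ± 0.19). Groups were apart for all 3. Carbonic anhydrase 9, Car9, rose from 1.05, 2.50 and 2.00 CPM to 5.73, 4.40 and 3.72 CPM (1.32 ± 0.46, adjusted p = 0.0409). That call was lost when any 1 of 5 libraries was left out, with adjusted p from 0.0647 to 0.139: vehicle replicates 1 and 3 of day 3 and replicates 1, 2 and 3 of day 35. Mxi1, an antagonist of Myc, had 0.97 without passing the test, and Kdm3a, a histone demethylase, was not tested.

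Per kilobase of transcript, the order of the abundant genes with 1 row changed between the days. At day 3 the highest 4 were Pkm2 (199 CPM per kb), Hif1a (140), Pgam1 (124) and Pgk1 (98.3), followed by Adm (52.8) and Eno1 (44.9). At day 35 they were Pgk1 (378), Pkm2 (295), Pgam1 (214) and Eno1 (122), then Hif1a (93.9), Higd1a (80.1) and Pdk1 (70.9), while Adm stood at 5.01. These are levels on 1 length scale, and the library spread of each gene is that of its CPM values above. Genes with several rows, Aldoa and Ldha among them, cannot be placed in this order. Mean RPKM of untreated cells at day 3 gave another order. There Pkm2 was at 45.9, Adm at 34.8, Aldoa at 17.1, Ldha at 15.6 and Hif1a at 8.25 RPKM. Pgam1 was at 1.86 and Pgk1 at 1.50 RPKM.

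Genes of the same pathways outside the 36 moved in both directions, where 15.5% of all genes tested were called higher and 14.5% lower. Of 26 tested further HIF targets, 13 rose and 4 fell (median 0.86). The largest rises were in Narf, a nuclear prelamin-binding protein gene (12.1 to 113 CPM, 3.22 ± 0.17), P4ha1, a collagen prolyl hydroxylase (173 to 1130 CPM, 2.71 ± 0.16), Stc2 (4.49 to 29.4 CPM, 2.71 ± 0.19) and Ero1l, an oxidase of disulfide bond formation (35.0 to 141 CPM, 2.02 ± 0.20). Those that fell included Edn1 (22.3 to 0.764 CPM, −4.87 ± 0.45), Ccng2 (−1.57 ± 0.15) and Wsb1 (−1.24 ± 0.19). Other glycolysis and lactate genes showed 5 rises and 2 falls among 24 (median 0.39), with rises in Fbp1 (0.0244 to 0.880 CPM, 5.02 ± 1.50, adjusted p up to 0.0647 when 1 library was left out), Bpgm (1.34 ± 0.20), Gbe1 (1.07 ± 0.15) and the lactate carrier Slc16a1 (202 to 396 CPM, 0.97 ± 0.21), with Pgm1 (−1.53 ± 0.18) and Ldhb (−0.73 ± 0.19) falling. Controllers of HIF split 3 to 3 among 10: Vhl, the recognition subunit that binds hydroxylated HIF, rose from 33.8 to 105 CPM (1.64 ± 0.19) with Os9 and Egln2, and Cited2, which competes with HIF for its coactivator, fell from 260 to 19.5 CPM (−3.74 ± 0.31) with Arnt2 and Siah1a. Pyruvate dehydrogenase and citrate cycle genes split 5 to 4 among 28 with a median of 0.00, which is near the shares over all genes. The falls included citrate synthase Cs (−0.64 ± 0.17) and Ogdh (−0.76 ± 0.16).

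The same 2 days were compared in 1,25(OH)2D3-treated cells, which share no library with the vehicle comparison. Here 25 of 32 genes rose and 1 fell, where 27.6% of all genes tested were called (14.7% higher, 12.9% lower), and the median was 1.40 against −0.42 over all genes tested. That all-gene median depended on scaling. It was 0 after subtracting the background that olfactory receptor genes give, where all 26 calls were kept. With library totals in place of TMM it was −0.78, and 6 calls were lost. Without hormone replicate 2 of day 35 the calls over all genes went from 2947 higher and 2586 lower to 3906 and 5565, and those of the 32 to 24 higher and 0 lower. Both comparisons called 21 genes higher, among them Egln3 (3.74), Bnip3 (3.01), Pdk1 (2.66), Aldoc (2.56), Pgk1 (2.53), Higd1a (2.19), Pfkl (2.18), Hk2 (2.09) and Egln1 (1.99). Hif1a was called in opposite directions: with hormone it rose from 303, 347 and 293 CPM to 608, 479 and 606 CPM (0.85, adjusted p = 0.000887), with no overlap. Ankrd37 (1.64, adjusted p = 0.143), Pfkfb4 (−0.06, adjusted p = 0.885) and Slc2a1 (0.32, adjusted p = 0.25) were not called with hormone. Adm was the gene that fell (−0.55, adjusted p = 0.0417), a call lost when any of 5 libraries was left out, namely hormone replicates 2 and 3 of day 3 and replicates 1, 2 and 3 of day 35 (adjusted p 0.0906 to 0.302). Slc2a3 went from 5.96, 6.43 and 5.11 CPM to 14.1, 13.1 and 9.75 CPM, and Hk1, in rows of the kind described above, from 5.14, 3.63 and 3.38 CPM to 10.5, 7.79 and 9.13 CPM; the days did not overlap in either. Rises of Slc2a3 (1.08, adjusted p = 0.00391), Hk1 (1.18) and Pfkp (0.45, adjusted p = 0.0336) were called here and not with vehicle; that of Pfkp was lost without hormone replicate 1 or 2 of day 3 (0.0813 and 0.138). Epas1 lost its call without hormone replicate 2 or 3 of day 3 or replicate 3 of day 35 (0.0549 to 0.0937), and Car9 without any hormone library of day 3 or without replicate 2 of day 35 (0.0668 to 0.104).

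**Figure D2:**
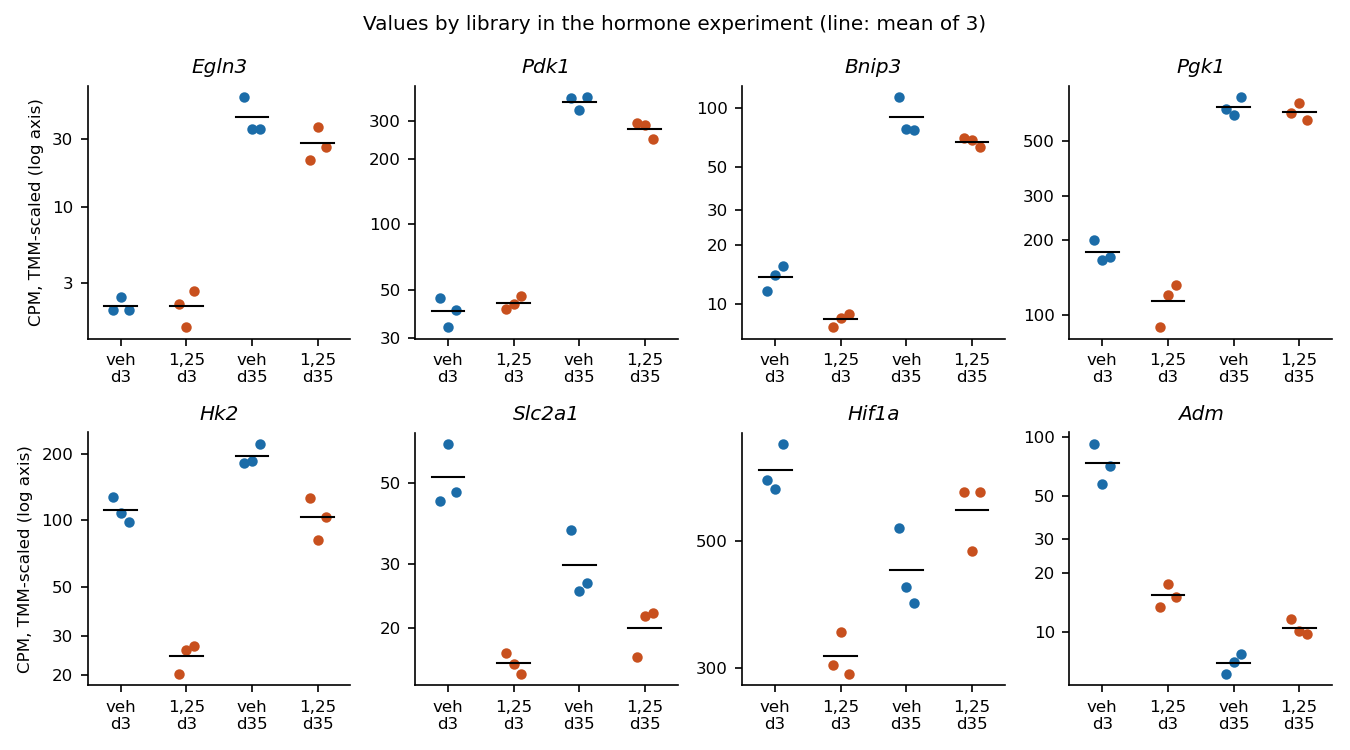
CPM scaled with TMM (y axis, log scale) of 8 genes in each of the 12 libraries of the hormone experiment, by group; points are libraries and lines are means of 3. Egln3, Pdk1, Bnip3 and Pgk1 are high in both day 35 groups, Hk2, Slc2a1 and Hif1a are low in the hormone group of day 3, and Adm is high only in the vehicle group of day 3, at 57.6 to 91.8 CPM.

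1,25(OH)2D3 was set against vehicle at day 3 to ask how early cells responded to 24 h of hormone. No gene was called higher and 13 of 32 fell, where 20.5% of all genes tested were called (11.4% higher, 9.09% lower); the median was −0.40 against 0.26 over all genes. In edgeR 2 genes were higher and 15 lower at an unadjusted p below 0.05, and DESeq2 called 1 gene higher, Epas1. This split depended on scaling: with library totals in place of TMM, chosen after seeing the data, 4 were higher (Epas1, Higd1a, Pdk1 and Pfkfb4) and 6 lower, with an all-gene median of 0.65. After subtracting the background that olfactory receptor genes give, 0 were higher and 9 lower, with an all-gene median of −0.03. The vehicle libraries of day 3 enter this comparison and the vehicle comparison of the 2 days, so those comparisons are not independent. The high background share and TMM factors given above belong to the hormone group compared here; their part was not tested beyond these alternatives.

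The deepest falls were those of Adm, Hk2 and Slc2a1; the other genes of glucose entry, Slc2a3 (−0.54, adjusted p = 0.118) and Hk1 (−0.35, adjusted p = 0.388), were not called. Adm dropped from 91.8, 57.6 and 70.9 CPM with vehicle to 13.5, 17.5 and 15.2 CPM with hormone, 4.77-fold lower (−2.25 ± 0.19, adjusted p = 2.24e-06). Hk2 dropped from 127, 108 and 98.5 CPM to 20.3, 25.8 and 27.0 CPM, 4.55-fold lower (−2.19 ± 0.19, adjusted p = 2.08e-06). Slc2a1 dropped from 44.6, 63.7 and 47.0 CPM to 17.2, 16.0 and 15.1 CPM (−1.69 ± 0.20, adjusted p = 4.67e-05). In each of these genes the highest hormone library was well below the lowest vehicle library. Hif1a went from 637, 615 and 737 CPM to 303, 347 and 293 CPM (−1.08 ± 0.16, adjusted p = 0.000356). Ndrg1 went from 50.5, 120 and 69.3 CPM to 33.4, 27.0 and 25.1 CPM (−1.49 ± 0.25, adjusted p = 0.00114). Bhlhe40 went from 33.7, 51.1 and 41.3 CPM to 18.8, 17.8 and 20.3 CPM (−1.15 ± 0.19, adjusted p = 0.000999). These 6 genes remained lower under every alternative run, library totals included, and after background subtraction their changes were between −0.76 (Hif1a) and −2.00 (Hk2).

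The other 7 falls were smaller and each lost its call under at least 1 alternative. They were Pgam1 (−0.78), Bnip3 (−0.72), Pgk1 (−0.66), Pfkp (−0.63), Gpi1 (−0.59), Pkm2 (−0.59) and Egln1 (−0.47), with adjusted p from 0.0102 to 0.0437. With library totals none of the 7 was called. Without hormone replicate 1 the calls of Pgk1 (adjusted p = 0.0504), Pkm2 (0.0539), Pgam1 (0.0572) and Egln1 (0.0850) were lost; without hormone replicate 2 those of Pfkp (0.0536), Egln1 (0.0634) and Pgam1 (0.102) were lost. Leaving out hormone replicate 3 or vehicle replicate 2 ended the calls of Pgam1 (0.121 and 0.186) and Egln1 (0.121 and 0.10). Of the 6 genes with the largest rises between the days, Bnip3 was called lower here and 5 were not called. Egln3 had 2.11, 1.47 and 2.64 CPM with hormone (−0.00, adjusted p = 1.00), Pdk1 40.7, 43.2 and 46.7 CPM (0.12, adjusted p = 0.549) and Higd1a 20.8, 28.6 and 22.7 CPM (0.06, adjusted p = 0.790). Ankrd37 was at 0.586, 0 and 0.482 CPM with vehicle and 0.458, 0.708 and 1.15 CPM with hormone (1.12, adjusted p = 0.312), with overlap. Egln3, Epas1, Aldoc, Car9 and Slc2a3 lay near the computed background in the hormone libraries (for Aldoc 1.11 to 1.35 CPM against a background of 0.978 to 1.31), and after subtraction Aldoc (−3.80, adjusted p = 0.00144) and Slc2a3 (−1.06, adjusted p = 0.0278) were called lower.

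Beside the 36, 12 of 26 further HIF targets fell and 3 rose with hormone at day 3 (median −0.44). Over all genes tested, 9.09% were called lower and 11.4% higher. Edn1 (−2.59), Stc2 (−1.36), Wsb1 (−1.35) and Ccng2 (−1.18) fell, while Narf rose (0.67) and P4ha1 was not called (0.05). Cited2 fell from 260 to 42 CPM (−2.63) and Vhl rose from 33.8 to 64.4 CPM (0.93), the 2 calls among 10 controllers of HIF. Pyruvate dehydrogenase and citrate cycle genes showed 7 falls and 1 rise of 28, and other glycolysis genes 3 rises and 2 falls of 24. Adipocyte markers went from between 1.84 and 3.92 CPM with vehicle to between 2.66 and 160 CPM with hormone, with 3 of 4 tested higher. The sum of osteocyte markers went from between 107 and 133 to between 58.9 and 62.1. Of the 6 osteocyte markers tested, 2 were called higher and 3 lower, with a median log2 change of 1.73. The part of these markers was not tested. No cell cycle gene was called in this comparison (edgeR; sums of 1228 to 1453 CPM with hormone).

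With hormone at day 35 no gene was called higher and 3 of 32 fell (median −0.31 against 0.02 over all genes), where 4.56% of all genes tested were called (2.41% higher, 2.14% lower); edgeR gave 3 higher and 11 lower at an unadjusted p below 0.05, and DESeq2 called 3 higher (Adm, Epas1 and Hif1a) and 4 lower. Hk2 fell from 181, 185 and 221 CPM to 126, 81.3 and 104 CPM (−0.91 ± 0.18, adjusted p = 0.00578), and this was the call kept under every alternative. Ndrg1 fell from 206, 179 and 171 CPM to 66.9, 85.8 and 89.3 CPM (−1.20 ± 0.25, adjusted p = 0.00886), with an adjusted p of 0.0618 without hormone replicate 1. Higd1a fell from 196, 154 and 187 CPM to 128, 98.5 and 103 CPM (−0.70 ± 0.16, adjusted p = 0.0209). All 3 had no overlap between treatments, but Higd1a lost its call without hormone replicate 2 or 3 (0.104 and 0.131) and without vehicle replicate 1 or 3 (0.0839 and 0.104). Adm was at 6.14, 7.04 and 7.72 CPM with vehicle and 11.7, 10.2 and 9.75 CPM with hormone (0.60, adjusted p = 0.107), and Pfkfb4 went from a mean of 8.39 to 4.40 CPM (−0.93, adjusted p = 0.0544); the treatments did not overlap in either, and neither gene passed the test. Among further HIF targets 5 of 26 rose and 2 fell, P4ha1 among the latter (1130 to 724 CPM, −0.64). In the same libraries osteoblast markers summed to between 20506 and 26173 CPM with vehicle and between 13271 and 17078 with hormone, chondrocyte markers to between 304 and 401 and between 210 and 247, and adipocyte markers to between 9.52 and 15.6 and between 19.1 and 36.8; their part was not tested.

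The difference between the 2 responses was tested as an interaction, with 7.08% of all genes called (4.14% higher, 2.94% lower at day 35 than at day 3). It was called for 5 of 32 genes, 4 with a higher and 1 with a lower response at day 35, and all 4 vehicle and hormone groups enter it. Without hormone replicate 2 of day 35 the calls over all genes went from 831 higher and 589 lower to 1647 and 3243, and those of the 32 to 6 and 1. Adm had the largest difference, 2.85 ± 0.27 (adjusted p = 9.47e-06), its response being −2.25 at day 3 and 0.60 at day 35. Hif1a differed by 1.43 ± 0.22 (adjusted p = 0.000965), with responses of −1.08 and 0.35. Hk2 differed by 1.27 ± 0.25 (adjusted p = 0.00592): it fell at both days, and by more at day 3. These 3 calls were kept under every alternative. Slc2a1 differed by 1.12 ± 0.27 (adjusted p = 0.0216) and Pfkfb4 by −1.50 ± 0.36 (adjusted p = 0.0215), the latter with means of 3.09 and 4.58 CPM for vehicle and hormone at day 3. The call of Slc2a1 was lost without hormone replicate 2 or 3 of day 3 (0.0520 and 0.0614). That of Pfkfb4 was lost when any 1 of 8 libraries was left out (adjusted p 0.0535 to 0.0972): vehicle replicates 1 and 3 and hormone replicate 2 of day 3, and every vehicle library and hormone replicates 1 and 3 of day 35. Ndrg1, which fell at both days, had a difference of 0.29 (adjusted p = 0.652).

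**Figure D3:**
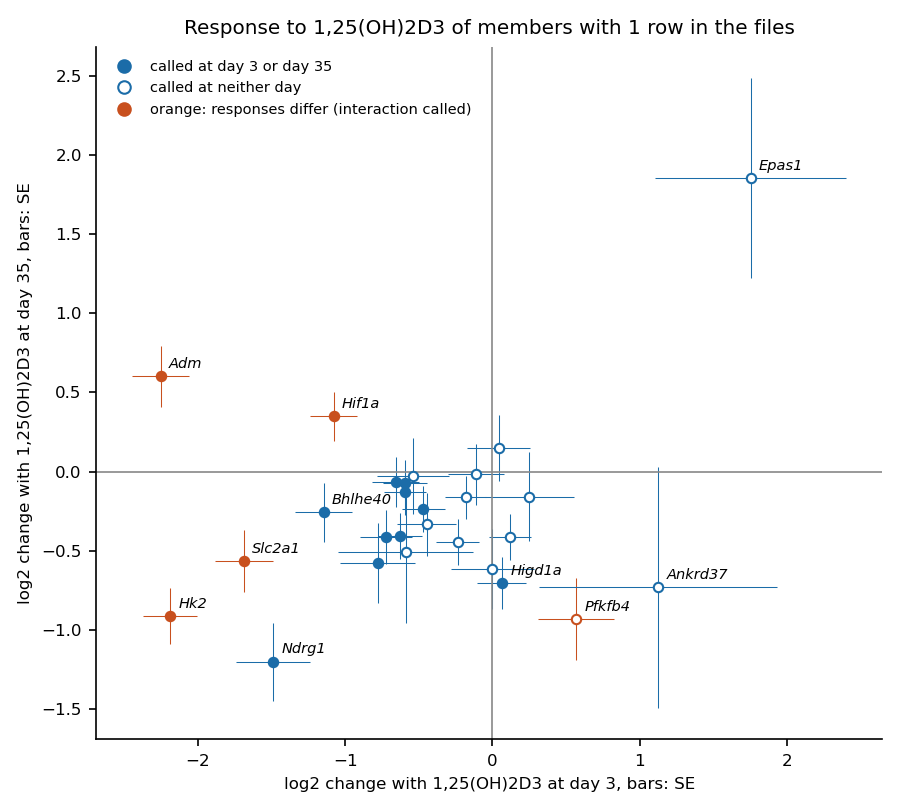
Log2 change with 1,25(OH)2D3 at day 3 (x axis) and at day 35 (y axis) of the 27 glycolysis and hypoxia genes with a single row, with standard errors, from 3 libraries a group. Orange marks the 5 genes whose responses differed between the days and filled points passed the test at either day; Adm and Hif1a lie left of 0 and above 0, and Hk2 lies below 0 on both axes.

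The untreated experiment followed the genes over 6 days and gives values for several whose levels the hormone experiment could not give. Genes with several rows are represented by the row with the highest mean, which was not shown to be the level of the whole gene. Of the 36, 27 passed the filter of at least 1 RPKM in at least 3 libraries; Slc2a1, Pfkm, Eno1, Eno2, Pfkfb3, Pfkfb4, Epas1, Egln3 and Car9 did not, with Egln3 at no more than 0.464 RPKM in any library and Epas1 at 0 at day 3. Changes here are limma estimates on log2(RPKM + 0.5), a scale that understates changes of low genes. Relative to day 3, 2 genes rose and 6 fell at day 7 (25.7% of 9933 genes tested were called, 15.8% higher and 9.84% lower), and 3 rose and 5 fell at day 14 (29.7%, 14.4% and 15.3%), or 5 rose with replicate numbers as a block (Pkm2, 0.73, and Tpi1, 0.88, added). At day 21, 3 rose and 11 fell (37%, 12.9% and 24.1%), and at day 28, 7 rose and 7 fell (41.5%, 10.4% and 31.2%). At day 35, 5 rose and 10 fell (57.1%, 5.63% higher and 51.5% lower), with a median of −0.35 against −0.69 over all genes. When each library was centred on its median gene, day 35 gave 10 rises and 4 falls, against 29.5% higher and 21.5% lower over all genes, so the balance of directions at that day turned with the scaling. Rows of rRNA took 75.6% to 80.1% of the RPKM sum at day 3 and 81.3% to 88.4% at day 35; rescaled without them, 8 of the genes rose, and over all genes the calls went from 559 higher and 5117 lower to 1420 and 4051. All 5 comparisons share the day 3 libraries. Replicates 2 and 3 came from sequencing run 243 at day 3, run 247 at days 14, 21 and 28 and run 246 at day 35. In those replicates, a change from day 3 to these days cannot be told apart from a change of run. Within sequencing run 230, which holds replicate 1 of every day, all called genes had the same direction. These were 8 of 8 at day 7, 8 of 8 at day 14, 14 of 14 at day 21, 14 of 14 at day 28 and 15 of 15 at day 35. The replicate 1 libraries also entered the fits that made the calls. With 1 library a day, this agreement is therefore not a separate check on the runs.

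**Figure D4:**
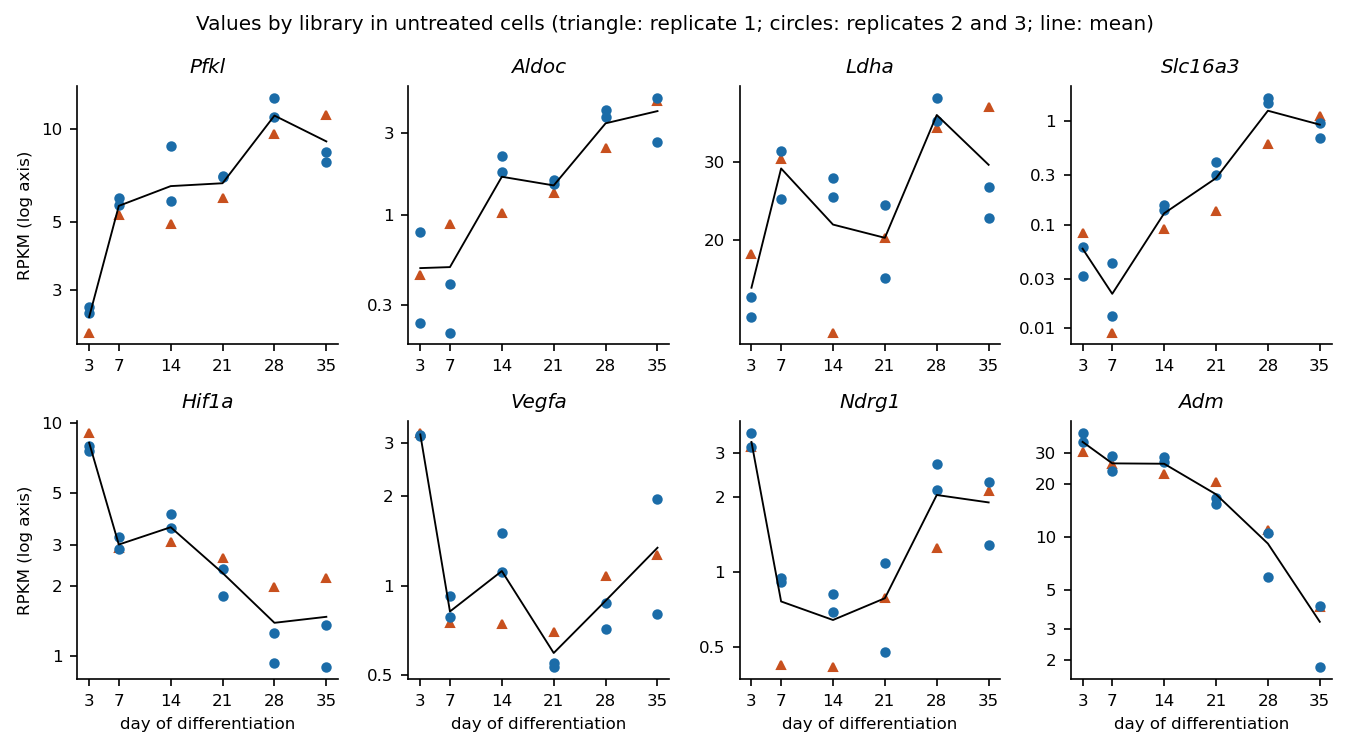
RPKM (y axis, log scale) of 8 genes in the 18 untreated libraries against day (x axis); triangles are replicate 1, circles replicates 2 and 3, and lines join means of 3. Pfkl and Aldoc climb over the course, Slc16a3 climbs from day 21 to day 28, Adm and Hif1a decline to day 35, and Vegfa and Ndrg1 drop by day 7.

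Hif1a, the vessel growth factor gene Vegfa and Gapdh were called lower at every later day; Gapdh is described further on. Hif1a was at 9.13, 7.64 and 8.00 RPKM at day 3, at 2.91, 2.90 and 3.24 RPKM at day 7 and at 2.17, 1.36 and 0.896 RPKM at day 35. No later library reached the lowest of day 3, and the change was −1.31 at day 7 and −2.19 ± 0.24 at day 35 (adjusted p = 3.49e-07; −1.37 when centred). Vegfa fell from 3.26, 3.17 and 3.21 RPKM to 0.749, 0.925 and 0.783 RPKM at day 7 and stood at 1.27, 1.95 and 0.802 RPKM at day 35. Its change was −1.50 at day 7 and −1.06 ± 0.23 at day 35 (adjusted p = 0.000510); centred, the day 35 value was −0.24 and was not called. Adm declined later, from 30.3, 34.7 and 39.3 RPKM at day 3 through 20.5, 15.4 and 16.6 RPKM at day 21 to 4.02, 4.07 and 1.82 RPKM at day 35. The fall between day 28 and day 35 passed the test by itself (−1.37, adjusted p = 0.00862), and the fall from day 3 was −3.27 ± 0.27 (adjusted p = 9.15e-09; −2.45 when centred). Ndrg1 dipped and recovered in part, at 3.17, 3.19 and 3.63 RPKM at day 3, 0.424, 0.948 and 0.909 RPKM at day 7, 1.25, 2.14 and 2.73 RPKM at day 28 and 2.12, 2.31 and 1.28 RPKM at day 35. Its day 35 change of −0.70 became 0.12 when centred and lost its call without any day 3 library (adjusted p 0.0529 to 0.0909) or without replicate 3 of day 35 (0.157).

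The 5 genes called higher at day 35 were Pfkl, Aldoc and Aldoa of upper glycolysis, Ldha and the transporter gene Slc16a3; Hk1, Slc2a3 and Pdk1 were called higher on earlier days. Pfkl was at 2.19, 2.65 and 2.53 RPKM at day 3, 5.27, 5.68 and 5.98 RPKM at day 7 and 11.1, 8.43 and 7.84 RPKM at day 35. It was called higher at every later day, by 1.06 at day 7 and 1.69 ± 0.22 at day 35 (adjusted p = 2.40e-06; 2.52 when centred). Aldoc went from 0.445, 0.233 and 0.789 RPKM at day 3 to 1.03, 1.77 and 2.20 RPKM at day 14 and 4.61, 4.81 and 2.65 RPKM at day 35 (2.19 ± 0.29, adjusted p = 3.32e-06), and its rise from day 7 to day 14 was called (1.14, adjusted p = 0.0366; 2.87% of all genes were called in that step, 0.433% higher and 2.44% lower). Slc16a3, the lactate exporter, was between 0.032 and 0.083 RPKM at day 3 and went from 0.136, 0.404 and 0.304 RPKM at day 21 to 0.608, 1.69 and 1.50 RPKM at day 28. That step passed the test (1.13, adjusted p = 0.00812), and the day 35 libraries at 1.13, 0.967 and 0.682 RPKM remained above every library of day 3 (1.34 ± 0.22, adjusted p = 3.56e-05). Ldha, here the higher of its 2 rows, was at 18.6, 14.9 and 13.4 RPKM at day 3 and 35.9, 37.2 and 42 RPKM at day 28. At day 35 it was at 39.9, 26.4 and 22.5 RPKM (0.87 ± 0.28, adjusted p = 0.0126). The day 35 call was lost without replicate 3 of day 3 (0.0566) or replicate 1 of day 35 (0.0652). Aldoa rose from 15.4, 19.0 and 17.0 RPKM to 29.2, 30.7 and 23.9 RPKM (0.69 ± 0.23, adjusted p = 0.0167), which was lost without replicate 1 of day 3 (0.0649) or replicate 2 of day 35 (0.0620).

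Pdk1 was called higher at day 28: it was at 0.443, 0.328 and 0.474 RPKM at day 21, 1.24, 1.12 and 1.26 RPKM at day 28 and 0.655, 0.886 and 0.457 RPKM at day 35. The step to day 28 was called (0.90, adjusted p = 0.0235), the change from day 3 was 0.92 at day 28, and at day 35 it was 0.35 and was not called (1.18, adjusted p = 5.97e-05, when centred). The change from day 28 to day 35 was −0.57 (adjusted p = 0.0768), and that from day 7 to day 14 was 0.62 (adjusted p = 0.129), called with centred libraries (0.75, adjusted p = 0.0235) and under 2 other scalings. With replicate numbers as a block, the steps called between day 21 and day 28 went from 2 genes, Pdk1 and Slc16a3, to 4, with Hk2 (0.95) and Ndrg1 (0.97); over all genes 1.24% were called in that step, 0.826% higher and 0.413% lower. No gene was called between day 14 and day 21 (limma; 0 higher and 5 lower at an unadjusted p below 0.05; 0.634% of all genes called), and Pgam1 fell with Adm between day 28 and day 35 (7.98% of all genes called, 7.83% lower and 0.151% higher). Hk1 was higher at day 14, at 0.776, 3.10 and 2.49 RPKM against 0.335, 0.658 and 0.751 RPKM at day 3 (1.17), and its call at day 21 (0.83) was lost under some alternatives, among them leaving out replicate 1 or 2 of day 3 (0.143 and 0.0543) or of day 21 (0.0894 and 0.102). Slc2a3 was at 0.507, 0.601 and 0.52 RPKM at day 3 and 1.80, 0.812 and 1.61 RPKM at day 28 (0.83, adjusted p = 0.0229), a call lost without replicate 1 or 3 of day 3 (0.0624 and 0.0620) or of day 28 (0.0888 and 0.0829). Hk2 was lower in the middle of the course, at 2.03, 2.46 and 2.86 RPKM at day 21 against 3.93, 5.80 and 6.50 RPKM at day 3 (−0.98), and was not called at day 28 or day 35. Over the 36 genes the highest daily mean fell on day 3 in 17, on day 28 in 12 and on day 7 in 0. That tally uses uncentred values, has no share over all genes beside it and includes genes below the filter. Among those, the highest daily mean was 0.038 RPKM for Epas1 and 0.207 RPKM for Egln3.

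Several of the remaining falls at day 35 depended on scaling. Gapdh went from 4.14, 4.15 and 4.79 RPKM to 1.47, 0.577 and 1.05 RPKM (−1.71 ± 0.27, adjusted p = 2.04e-05) and kept its call when centred (−0.88). It was already at 1.85, 2.15 and 2.20 RPKM at day 7 (−0.92), a call lost without replicate 3 of day 3 (0.0609) or replicate 1 of day 7 (0.0530), and its day 14 call was lost without replicate 3 of day 3 (0.0517). Kdm3a went from 3.45, 4.36 and 4.69 RPKM to 1.88, 1.55 and 1.12 RPKM (−1.22; −0.40 when centred). Bnip3 went from 1.64, 2.11 and 3.70 RPKM to 0.252, 1.31 and 0.244 RPKM (−1.51; −0.69 and not called when centred). The next 3 genes were not called when centred either. Pgam1 went from 1.67, 2.00 and 1.90 RPKM to 0.496, 1.17 and 0.42 RPKM (−1.03; −0.21 when centred). Egln1 went from 1.10, 0.953 and 1.24 RPKM to 0.355, 0.481 and 0.42 RPKM (−0.80; 0.02 when centred). Pfkp went from 1.20, 1.26 and 1.98 RPKM to 0.907, 0.67 and 0.448 RPKM (−0.75; 0.07 when centred). Each of these groups was below its day 3 libraries without overlap before centring, and the call of Pfkp was also lost without replicate 3 of day 3 (0.0748) or replicate 3 of day 35 (0.0558). Tpi1 was low in replicate 1 on every day (6.36, 13.1 and 15.5 RPKM at day 3, 15.9, 32.9 and 21.3 RPKM at day 35), and its change of 1.00 at day 35 was not called. It was called with the replicate block at day 14 (0.88, adjusted p = 0.00908), day 21 (0.76, 0.0184) and day 28 (1.28, 0.000249), and at day 35 under 6 alternatives, among them the block (1.00, 0.00168), centring (1.82, 0.00886) and sequencing run as a covariate (1.18, 0.0113). Of 18 further HIF targets tested in untreated cells at day 35, 6 rose and 6 fell, where 5.63% of all genes tested were called higher and 51.5% lower. These counts are without centring. Cited2 fell from 30.4 to 2.43 RPKM (−3.40).

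Both experiments measured day 35 against day 3, in vehicle-treated and in untreated cells, with different library kits, so their values are set side by side and were not tested against each other. Aldoa, Aldoc and Pfkl were called higher in both, and Adm and Hif1a lower in both, with Adm at −3.40 and −3.27. Bnip3 (2.70 and −1.51), Egln1 (1.75 and −0.80), Ndrg1 (1.22 and −0.70), Gapdh (0.84 and −1.71) and Pgam1 (0.79 and −1.03) were called higher with vehicle and lower in untreated cells. When untreated libraries were centred, Egln1 and Ndrg1 turned to 0.02 and 0.12, while Bnip3, Gapdh and Pgam1 stayed below 0. A further 9 genes were higher with vehicle and not called in untreated cells, Pdk1, Pgk1, Pkm2, Hk2 and Higd1a among them. Of these 9, Tpi1 (1.82), Gpi1 (1.47), Pdk1 (1.18) and Bhlhe40 (0.78) were called higher with centred untreated libraries. The rest of the 9 were not, and 29.5% of all genes tested were called higher when centred. Another 6 genes could not be tested in untreated cells, Egln3 among them. Untreated osteoblast markers went from between 127 and 165 RPKM at day 3 to between 470 and 808 at day 35, and cell cycle genes from between 59.4 and 70.0 to between 3.30 and 7.58, while osteocyte markers were between 0.601 and 1.07 RPKM at day 3 and between 0.279 and 1.38 at day 35 with Fgf23 at 0. Their part in the difference between the experiments was not tested, and the kits cannot be told apart from the vehicle.

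**Figure D5:**
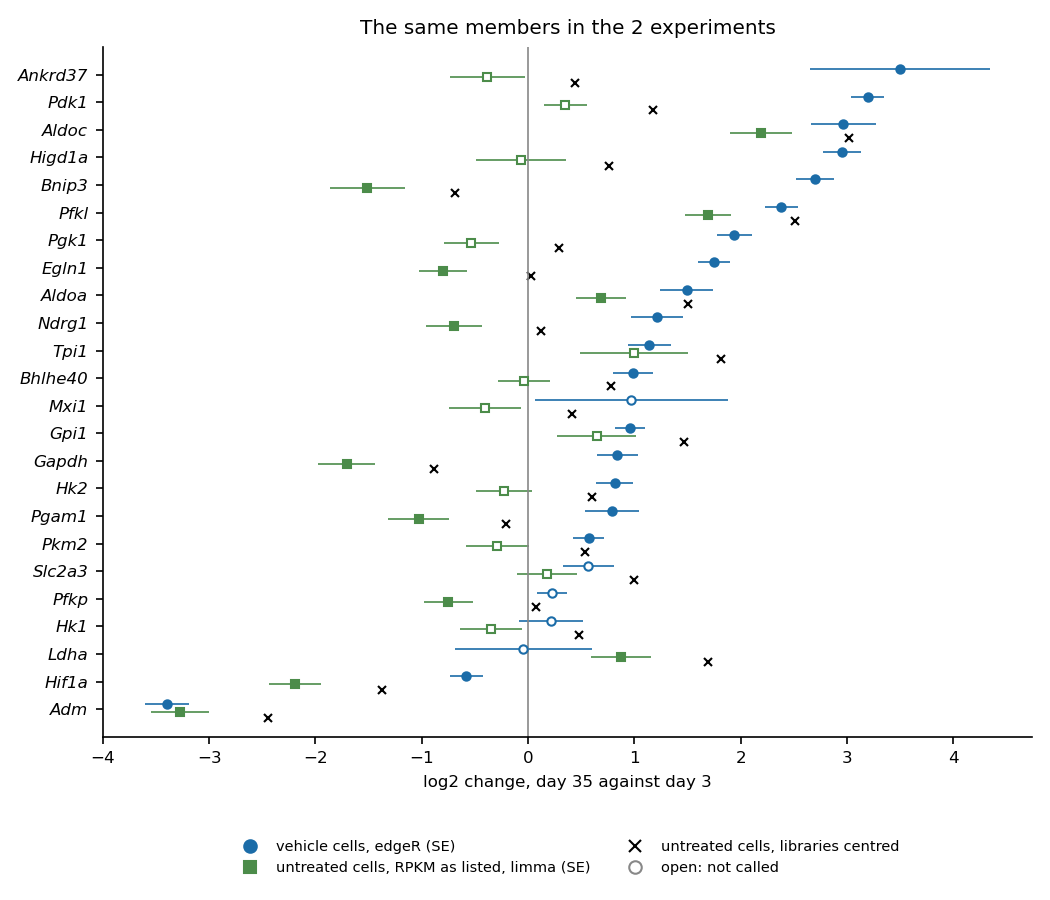
Log2 change between day 3 and day 35 (x axis) of the 24 genes tested in both experiments, with a row for each gene. Circles are vehicle-treated cells (edgeR) and squares are untreated cells as analysed (limma), with standard errors. Crosses are untreated cells with each library centred on its median gene, and open circles or squares did not pass the test. Aldoc and Pfkl have circle and square right of 0, and Adm has both left of 0. Bnip3 has its circle at 2.70 and its square at −1.51.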

How the data were processed

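The untreated libraries hold RPKM values as deposited by the authors, and the hormone libraries hold raw counts per row; reads were mapped with TopHat to mm9, per the submitters' processing notes, with versions and counting settings not given in the sources used here. The first used Illumina kits and the second ScriptSeq v2, per the labels, so tests stay within an experiment. For untreated cells, the row with the highest mean per symbol was taken (30901 rows) and log2(RPKM + 0.5) was fitted with limma 3.58.1 (trended, all 18 libraries, genes of at least 1 RPKM in at least 3). For hormone libraries, rows were summed per symbol (30795 rows) and the counts fitted with edgeR 4.0.16 (filterByExpr, TMM, quasi-likelihood, all 12 libraries) in R 4.3.3. P-values were two-sided and Benjamini-Hochberg adjusted over all genes tested, called below 0.05; "adjusted p" names these values. CPM values are TMM-scaled, and values per kilobase use the longest GENCODE M21 transcript. Symbols with 1 row had a median log2 ratio of CPM per kilobase to RPKM of 1.20, and those with several rows −3.70, from which transcript-specific counting was inferred.

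The 36 genes and all lists were chosen with earlier results of these data known. Values in every library are given for genes called between day 3 and day 35 in vehicle-treated or untreated cells and for the HIF subunits and hydroxylases; genes of other lists were named if called, at most 4 a list and direction, by size of change with vehicle; 1 result among the further HIF targets is not reported here. Same-numbered untreated replicates deviated together between day 3 and each of days 7 to 28, and between neighbouring days up to day 28 (correlations 0.158 to 0.584). The main fits left this pairing out, and a replicate block was run as an alternative only. Replicates 2 and 3 correlated across numbers as well (0.247 and 0.286 between days 3 and 14). Comparisons with day 35 and of hormone groups did not show such joint deviation for every same-numbered pair. Alternatives were other scalings, filters, pseudocounts, DESeq2 1.42.0, a replicate block, sequencing run, background subtraction and leaving out each library. The scripts were tested on simulated data.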

Additional observations from a re-analysis of the deposited data

Results flagged for a closer look

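The response to 1,25(OH)2D3 differed between day 35 and day 3 for 5 genes in the interaction test. The log2 difference was 2.85 for Adm, 1.43 for Hif1a, 1.27 for Hk2, 1.12 for Slc2a1 and −1.50 for Pfkfb4. In 4 genes called higher with vehicle and lower in untreated cells, every vehicle library of day 35 lay above those of day 3. In the same genes every untreated library of day 35 lay below every untreated library of day 3. Bnip3 changed by 2.70 with vehicle and −1.51 in untreated cells, and Egln1 by 1.75 and −0.80. Ndrg1 changed by 1.22 and −0.70, and Gapdh by 0.84 and −1.71. Libraries of Pfkp, Eno1, Eno2 and Pfkfb4 lay apart in the same way, without calls in both experiments. Pfkp was not called with vehicle, and Eno1, Eno2 and Pfkfb4 were not tested in untreated cells. These separations have no share over all genes beside them. The untreated values are uncentred, and 51.5% of all genes tested were called lower in untreated cells at day 35. With centred libraries Egln1 turned to 0.02, Ndrg1 to 0.12 and Pfkp to 0.07. Bnip3 and Gapdh stayed below 0 when centred, Bnip3 without a call. The difference between the experiments was not tested, since their library kits differ.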

How the results depend on the processing

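Of the genes called between day 3 and day 35, 22 of 26 kept direction and call under every alternative with vehicle, 19 of 26 with hormone and 6 of 15 in untreated cells; 3 untreated calls reversed: Pfkp to 0.0721 with centred libraries and 0.0805 with quantile normalization, Egln1 to 0.025 and 0.0525, and Ndrg1 to 0.125 and 0.117. In the counts that follow, the cause was not tested. Centred libraries gave 10 falls at day 7, 5 rises at day 14, 6 at day 21, 12 at day 28, 10 rises and 4 falls at day 35, and 2 and 8 calls for the steps from day 7 to 14 and day 21 to 28; over all genes day 35 went from 559 higher and 5117 lower to 2934 and 2139. Quantile normalization gave 1 rise and 10 falls at day 7, 8 falls at day 14, 12 rises at day 28, 10 rises and 4 falls at day 35, and 2 and 8 calls for those steps. Rescaling without rRNA rows gave 11 falls at day 7, 9 at day 14, 8 rises at day 35, and 2 and 8 calls for those steps. Fitting only the 2 days compared gave 5 rises at day 7 and 0 calls for the steps from day 7 to 14, 21 to 28 and 28 to 35. Sequencing run as a covariate gave 1 rise at day 21, 6 falls at day 35, and 0, 5 and 0 calls for those 3 steps. No filter gave 0 and 1 calls from day 7 to 14 and day 28 to 35 and 0 falls with hormone between the days; a pseudocount of 0.1 gave 1 call from day 21 to 28. The replicate block gave 5 rises at day 14, 4 calls from day 21 to 28 and 0 falls with hormone between the days, and moved no other count by over 1.5 times; hormone replicates share only a number. With 1,25(OH)2D3 against vehicle, DESeq2 gave 1 rise at day 3 and 3 at day 35 and 3 lower responses at day 35 than at day 3; RLE factors gave 2 lower responses; library totals, added after seeing the data, gave 4 rises and 6 falls at day 3, 1 rise at day 35 and 3 lower responses.

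Leaving out 1 library gave 1 to 2 rises and 3 to 6 falls at day 7, 3 to 8 and 3 to 5 at day 14, 1 to 3 and 7 to 11 at day 21, 4 to 8 and 5 to 7 at day 28, and 3 to 6 and 7 to 11 at day 35. The extremes came without day 3 replicate 2 (1 rise at days 7 and 21) or 3 (1 rise and 3 falls at day 7, 3 falls at day 14, 7 at day 21), day 7 replicate 1 (1 rise, 3 falls) or 3 (1 rise), day 14 replicate 1 (8 rises), day 21 replicate 2 (7 falls), day 28 replicate 3 (4 rises) and day 35 replicate 1 (3 rises). The steps gave 0 to 2, 0 to 0, 0 to 6 and 1 to 4 calls in order of day. Vehicle between the days gave 20 to 23 rises and 2 to 3 falls, and hormone 22 to 26 and 0 to 1. Hormone against vehicle gave 0 to 1 rises and 9 to 13 falls at day 3 (1 rise without vehicle replicate 2) and 0 to 1 and 2 to 3 at day 35 (1 rise without vehicle replicate 1); the difference in response gave 3 to 6 higher and 0 to 1 lower.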
